A study of Mus musculus with 6 samples.

Results

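The cells described here are synovial fibroblasts that carry transcripts of H19, Mfap2, Ptn and Cthrc1, genes of fibroblasts that lay down and remodel matrix, and they are called wound-type cells below. They were chosen by raw UMI counts (unique molecular identifiers, so that amplified copies of a transcript are counted once) in each cell. A stromal gate asked for at most 10% mitochondrial UMIs, at least 5 UMIs of Col1a2 and Dcn together, no Ptprc, no Pecam1 and at most 1 Tyrobp UMI. Among those cells, a wound-type cell held at least 6 UMIs of H19, Mfap2, Ptn and Cthrc1 together and at most 2 of Fmod and Tnn together. The rule found 1784 cells among 11148 stromal-gate cells and 18491 deposited barcodes. There were 255 in the anti-Notch3 library, 789 in the isotype library, 96 in the arthritic knockout library, 284 in the arthritic wild-type library, 190 in the healthy knockout library and 170 in the healthy wild-type library.

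The study compared synovial cells of mouse knees with and without Notch3, a receptor of the Notch pathway. Synovium was dissected and dissociated, and live sorted cells went into a 10x 3' library, which reads the end of each polyadenylated transcript. Of the groups, 4 were arthritic and 2 healthy; arthritis was brought on by transferred K/BxN serum, whose autoantibodies inflame joints. The arthritic groups were mice given an antibody against Notch3, mice given an isotype control antibody, Notch3-/- knockout mice and wild-type mice, and the healthy groups were Notch3-/- knockout and wild-type mice. Each group is 1 library from 10 pooled mice, so no group has a replicate and no difference between groups could be tested. The strain, the age, the doses and days of serum and antibody, and the deleted part of Notch3 are not given in the sources used here. All intervals below are exact or log-scale intervals at 95% that cover counting error only.

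H19 is an imprinted long non-coding RNA that is abundant in embryonic tissue, mostly silent in the adult, and the host of a microRNA. Cthrc1 is a secreted protein of injured arteries and healing matrix, Ptn (pleiotrophin) is a heparin-binding growth factor, and Mfap2 (MAGP-1) sits on the fibrillin microfibrils of elastic tissue. Mfap4 is another microfibril protein and Postn (periostin) a matrix protein made by activated fibroblasts. In the joint, lining fibroblasts at the surface make lubricin (Prg4), while sublining fibroblasts lie deeper around vessels, and Notch3 signalling from vessels is known to shape fibroblasts near them.

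H19 lies at chr7:142575529-142578143 on the minus strand (GRCm38, the build of the files, GENCODE M21), and the Mir675 hairpin lies inside it at chr7:142577064-142577147, in an exon of 3 of its 7 annotated transcripts. H19 is the host transcript of both mature miR-675 RNAs, which a 3' library does not count, so no level of them is given. Their sequences (RefSeq, GRCm38.p6) are shown, as the part of the H19 transcript with a known product, with the seed, bases 2 to 8, in capitals, and the seeds of the arms differ.
mmu-miR-675-5p: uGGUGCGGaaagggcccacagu
mmu-miR-675-3p: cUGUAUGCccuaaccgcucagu
Of the other markers, Mfap2 is at chr4:141010418-141015984 (plus strand), Ptn at chr6:36714929-36810220 (minus), Cthrc1 at chr15:39076932-39087121 (plus), Mfap4 at chr11:61485431-61488900 (plus) and Postn at chr3:54361109-54391037 (plus). Of the markers that the rule did not use, Postn had the higher level in each library, so the promoter of one of its RefSeq starts, within 20 bases of which 3 of its 9 GENCODE transcripts start, is printed from 250 bases before to 50 after the start (chr3:54360857-54361156, plus strand, GRCm38.p6, RefSeq). The capitals mark the only match to TATAAA on either strand, 26 bases before the start.
Postn promoter: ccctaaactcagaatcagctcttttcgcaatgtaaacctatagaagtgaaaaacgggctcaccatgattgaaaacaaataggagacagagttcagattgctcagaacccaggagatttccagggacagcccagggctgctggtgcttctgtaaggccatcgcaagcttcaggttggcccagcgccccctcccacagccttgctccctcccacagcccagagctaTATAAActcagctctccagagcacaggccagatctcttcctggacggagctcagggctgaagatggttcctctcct
Of 32851 promoters of this length in the table, 13.6% hold TATAAA on either strand. No match to it was found in the windows of the other Postn start, Ptn or Mfap2.

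The libraries held 2109 to 5096 barcodes and the wound-type cells of a library 477428 to 6313020 UMIs in all. Their median UMI count per cell was 8091 in the anti-Notch3 library, 7563 in the isotype, 4868 in the arthritic knockout, 8200 in the arthritic wild-type, 5038.5 in the healthy knockout and 10579 in the healthy wild-type library. Cells of the knockout libraries were thus the shallowest, which bears on a gate set in raw UMIs. Over all cells of a library, Notch3 held 3 UMIs in the arthritic knockout against 69 in the arthritic wild-type library, and 7 in the healthy knockout against 123 in the healthy wild-type library. Among the wound-type cells themselves it was sparse everywhere, with 0 UMIs in the arthritic knockout and 13 in the arthritic wild-type library. Barcode sequences were shared 179 times between pairs of libraries, 2 of them between wound-type cells. Scrublet, a doublet caller, marked 3 wound-type cells in the anti-Notch3 library, 3 in the healthy knockout library and 0 in the others. With 1 library a group, the handling of a library and its genotype or treatment cannot be told apart.

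Wound-type cells were frequent in the 3 arthritic libraries with an intact Notch3 gene and few in the other libraries. Their share of stromal-gate cells was 24.3% in the anti-Notch3 library (exact Clopper-Pearson interval 21.8 to 27.0) and 38.5% in the isotype library (36.4 to 40.7). In the arthritic knockout library it was 5.66% (4.61 to 6.86), against 27.6% in the arthritic wild-type library (24.9 to 30.4). In healthy joints it was 5.30% in the knockout (4.59 to 6.09) and 9.76% in the wild-type library (8.41 to 11.3). The arthritic knockout library thus stood beside the healthy libraries, far below the other arthritic ones. The ratio of shares was -0.66 on the log2 scale (95% interval -0.84 to -0.49) for anti-Notch3 against isotype and -2.29 on the log2 scale (95% interval -2.60 to -1.97) for arthritic knockout against arthritic wild type. It was 0.48 on the log2 scale (95% interval 0.32 to 0.65) for isotype against arthritic wild type, a pair without Notch3 targeting, and 1.498 on the log2 scale (95% interval 1.25 to 1.75) for arthritic against healthy wild type. Between the knockout libraries, arthritic against healthy, it was 0.09 on the log2 scale (95% interval -0.25 to 0.44). These comparisons share libraries, and a share cannot tell more wound-type cells from fewer cells of other stromal kinds.

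Because the gate counts raw UMIs, it was also run after each cell had been thinned at random to 3000 UMIs, with shallower cells left out. This left 947 stromal-gate cells in the anti-Notch3, 1920 in the isotype, 1502 in the arthritic knockout, 909 in the arthritic wild-type, 3140 in the healthy knockout and 1689 in the healthy wild-type library. The shares were then 16.3% in the anti-Notch3 and 32.2% in the isotype library, 2.60% in the arthritic knockout and 16.0% in the arthritic wild-type library, and 2.52% in the healthy knockout and 1.66% in the healthy wild-type library. At this matched depth the healthy pair turned round, with a log2 ratio of 0.60 in place of -0.88, so no direction is drawn for that pair. The arthritic knockout against arthritic wild-type ratio was -2.62 and that of anti-Notch3 against isotype -0.99, in the same direction as before. The anti-Notch3 share was close to that of the arthritic wild-type library at this depth, and it was the isotype library that stood above both.

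**Figure D1:**
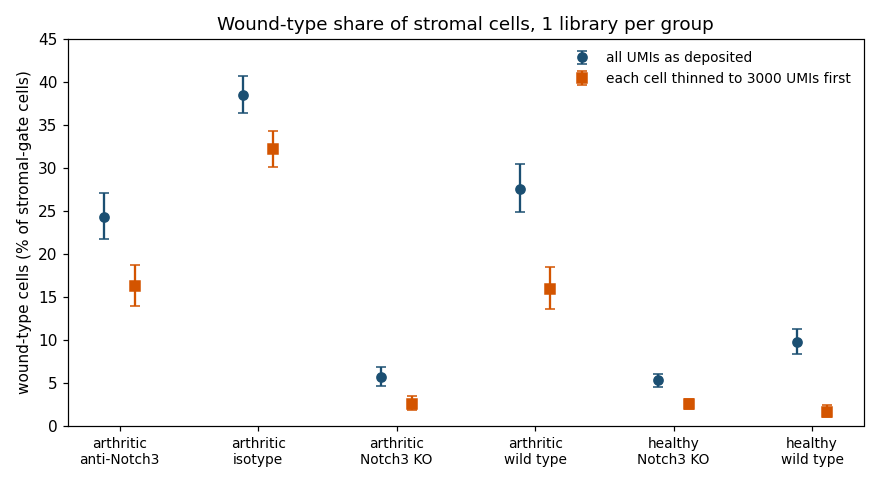
Wound-type cells as a percentage of stromal-gate cells (vertical axis) in the 6 libraries, with all UMIs (circles) and after each cell was thinned to 3000 UMIs (squares); bars are exact 95% binomial intervals, which cover counting error only. With all UMIs the isotype library stands at 38.5% and the arthritic knockout at 5.66%; the healthy knockout lies below the healthy wild type with all UMIs and above it after thinning.

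Depth inside the gate went with Postn in the anti-Notch3, isotype and arthritic wild-type libraries and not in all others. In the arthritic wild-type library, the 48 cells with a marker sum of 6 or 7 had 473 CPM (the UMIs of a gene per 1000000 UMIs of the same cells) of Postn and 9511 CPM of Prg4. The 95 cells with a sum of 4 or 5 had 277 CPM of Postn and 9873 CPM of Prg4. Cells with a sum of at least 15 in that library had 1897 CPM of Postn and 2161 CPM of Prg4. In the arthritic knockout library the bands of 4 or 5, 6 or 7 and at least 15 had 221, 286 and 178 CPM of Postn, and in the healthy wild-type library 185, 239 and 229. Postn was thus higher in each higher band of the arthritic wild-type library, and not in these. In the healthy knockout library it also rose, with 341, 400 and 467 CPM in the same bands. Members with a sum of at least 15 made up 53.7% of the anti-Notch3 and 59.8% of the isotype members, 6.25% of the arthritic knockout and 47.2% of the arthritic wild-type members, and 13.7% of the healthy knockout and 17.6% of the healthy wild-type members. The median marker sum was 16 UMIs in anti-Notch3, 18 in isotype, 8 in arthritic knockout, 14 in arthritic wild-type members, and 8 among both healthy groups, so in the knockout and healthy libraries most members lay close to the threshold. Only 6 arthritic knockout cells, 0.354% of its stromal cells, reached a sum of 15, against 134 cells (13.0%) in the arthritic wild-type library. Summed together, those arthritic knockout cells had 23083 CPM of the lining gene Prg4, against 2161 CPM in the arthritic wild-type cells. How this sum was spread over the 6 cells was not read.

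The genes that name the cells, H19 and Cthrc1, were not detected alike in the members of all libraries. H19 was detected in 38.8% of anti-Notch3, 38.8% of isotype and 42.6% of arthritic wild-type members, against 25% in the arthritic knockout and 10% in each healthy library. H19 is therefore absent from the counts of most members in every library. Summed over the members, it stood at 675 CPM in the anti-Notch3 library, 417 in the isotype, 312 in the arthritic knockout, 665 in the arthritic wild-type, 135 in the healthy knockout and 62.4 in the healthy wild-type library. Cthrc1 was detected in 78.4% of anti-Notch3 and 90.7% of isotype members, in 20.8% of arthritic knockout and 80.3% of arthritic wild-type members, and in 37.9% of healthy knockout and 70% of healthy wild-type members. In both pairs of genotypes the knockout members carried it less often, while the antibody pair was closer together. Since these genes set the gate, their levels describe the cells and are no finding.

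Over all members, Mfap4 and Postn, which the rule did not use, stood higher in the anti-Notch3, isotype and arthritic wild-type libraries than in the rest. Postn stood at 1816 CPM in the anti-Notch3 library, 1520.2 in the isotype, 232 in the arthritic knockout, 1298 in the arthritic wild-type, 378 in the healthy knockout and 231 in the healthy wild-type library. Mfap4 stood at 301 CPM in the anti-Notch3 library, 368 in the isotype, 90.1 in the arthritic knockout, 365 in the arthritic wild-type, 29.7 in the healthy knockout and 26.7 in the healthy wild-type library. The arthritic wild-type, isotype and anti-Notch3 members were above the other 3 libraries for both genes, and the share of all genes that do so was not counted. The other stromal cells of the same libraries had 158, 587, 143, 226, 162 and 101 CPM of Postn in that order, so the members were higher in every library, by the least in the arthritic knockout (log2 ratio 0.71); among cells with a marker sum of at least 10 the smallest log2 ratio was -0.069. For arthritic knockout against arthritic wild-type members the log2 ratio was -2.48 for Postn and -2.00 for Mfap4. The antibody pair differed little in either gene, with log2 ratios of 0.26 and -0.29 for anti-Notch3 against isotype. Marker sums also differed between the libraries. Among cells with a sum of 6 or 7, Postn stood at 473 CPM in the arthritic wild-type and 400 in the healthy knockout library. Mfap4 stood at 35.0 CPM in such anti-Notch3 and 82.4 in such arthritic knockout cells. At a sum of 6 or 7 the libraries were thus closer for Postn and not separated for Mfap4. At a sum of at least 15 they were apart in both genes. There Postn stood at 2379, 2006 and 1897 CPM in the anti-Notch3, isotype and arthritic wild-type cells. It stood at 178, 467 and 229 in the arthritic knockout, healthy knockout and healthy wild-type cells. Mfap4 stood at 451, 503 and 603 against 102, 12.1 and 83.9 CPM in the same orders. Only 6 arthritic knockout cells were in that band.

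As a check on free RNA in the droplets, the same genes were read in immune cells (at least 1 Ptprc UMI and at most 1 of Col1a2 and Dcn), whose median depth ran from 3097.5 to 6799.5 UMIs. After thinning to 3000 UMIs, H19 was detected in 34.3% of anti-Notch3, 30.8% of isotype and 35.4% of arthritic wild-type members, and in at most 0.760% of the immune cells of any library. At that depth Postn was detected in 26.6% of arthritic knockout and 72.3% of arthritic wild-type members, against 0.990% and 0% of the thinned immune cells of those libraries. The isotype library had the most background, with Cthrc1 in 7.91% of its thinned immune cells beside 81.7% of its thinned members.

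**Figure D2:**
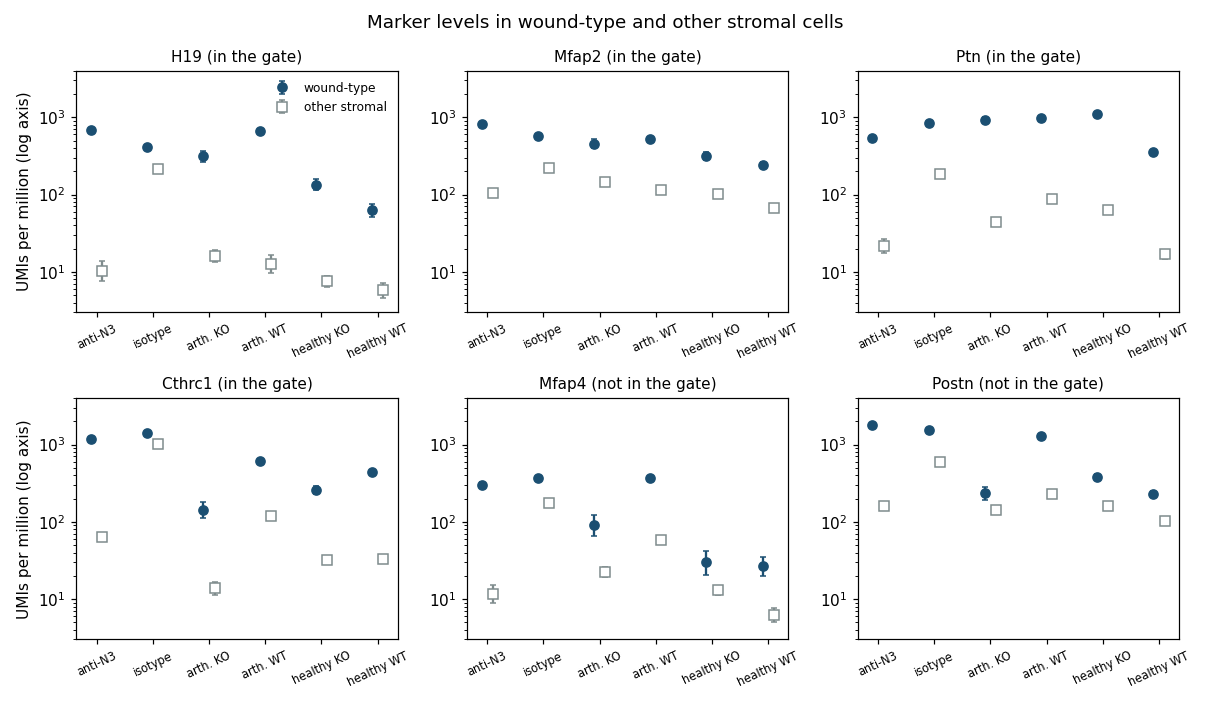
Summed level of each marker (CPM, log axis) in wound-type cells (filled circles) and other stromal-gate cells (open squares) of the 6 libraries, with exact 95% Poisson intervals for counting error. H19, Mfap2, Ptn and Cthrc1 set the gate; Mfap4 and Postn did not, and both are highest in the anti-Notch3, isotype and arthritic wild-type members. The other stromal cells of the isotype library stand far above those of the remaining libraries for H19, Cthrc1 and Mfap4. They include 450 cells that passed the marker sum and were kept out by the limit on Fmod and Tnn.

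Which gate gene brought a cell into the set also differed between libraries. Ptn had the most UMIs of the 4 genes in 53.1% of arthritic knockout against 31.3% of arthritic wild-type members, and in 61.6% of healthy knockout against 21.2% of healthy wild-type members. Cthrc1 led in 32.9% of anti-Notch3 and 47.8% of isotype members, in 5.21% of arthritic knockout and 22.9% of arthritic wild-type members, and in 11.6% of healthy knockout and 42.9% of healthy wild-type members. H19 led in 18.3% of arthritic wild-type members at the most. In the knockout libraries most members were thus led by Ptn, the growth factor, and not by the genes that name the cells.

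**Figure D3:**
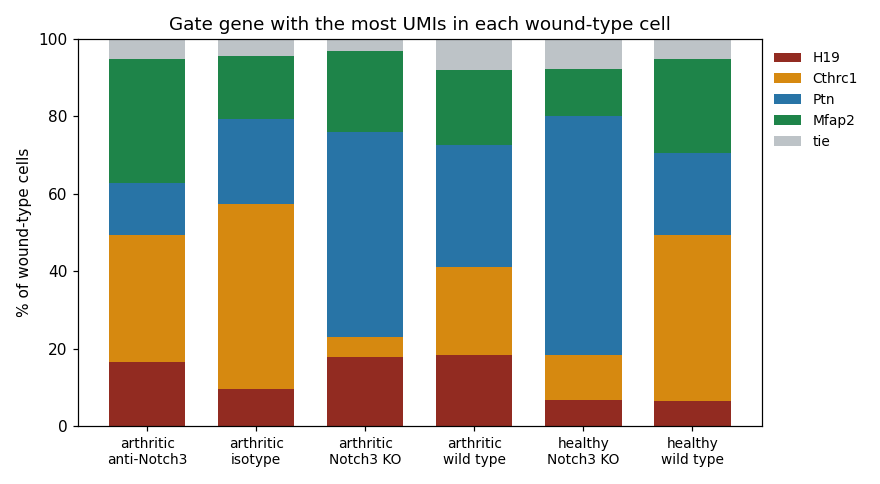
Share of wound-type cells (%) in which each of the 4 gate genes had the most UMIs, by library; ties are grey. Ptn leads in 53.1% of arthritic knockout and 61.6% of healthy knockout cells, and Cthrc1 in 47.8% of isotype cells.

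Within the thinned members, Postn and Mfap4 went together in some libraries and not in others. Pearson's r of their log UMIs over cells was 0.24 in the anti-Notch3 library (248 cells), 0.42 in the isotype (764), -0.02 in the arthritic knockout (94), 0.45 in the arthritic wild-type (274), -0.06 in the healthy knockout (181) and 0.08 in the healthy wild-type library (170). Cthrc1 with Postn gave 0.33, 0.26 and 0.24 in the anti-Notch3, isotype and arthritic wild-type members, against 0.09, -0.14 and -0.06 in the arthritic knockout, healthy knockout and healthy wild-type members. The cells of a library share its preparation and a fixed number of UMIs, counts per cell are sparse, and these values are descriptions.

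Set against the other stromal-gate cells of the same library, wound-type cells had more Sfrp2, Mfap4 and Cdkn1c and less of several lining genes. The rule itself made this contrast, so the values describe the cells and test nothing. Of 7583 genes with at least 50 UMIs in every library and no part in the gate, 3 were at least 2-fold higher in 6 of 6 libraries (0.0396%) and 24 at least 2-fold lower (0.316%). Within single libraries the share of measured genes at least 2-fold higher was 3.45% in the anti-Notch3, 1.87% in the isotype, 3.65% in the arthritic knockout, 1.68% in the arthritic wild-type, 2.63% in the healthy knockout and 1.06% in the healthy wild-type library. The share at least 2-fold lower was 4.03% in the anti-Notch3, 2.32% in the isotype, 5.63% in the arthritic knockout, 2.25% in the arthritic wild-type, 5.22% in the healthy knockout and 3.34% in the healthy wild-type library. The 3 higher in all libraries were Sfrp2, Mfap4 and Cdkn1c; after members were thinned to 3000 UMIs 0 were, with the smallest ratio of Sfrp2 at 0.96 on the log2 scale. The genes named from here on are the 15 higher and 10 lower ones with the largest ratio in the library where that ratio is smallest, among genes with at least 100 CPM. Sfrp2, a secreted Wnt antagonist, stood at 238 CPM in members against 98.7 in other cells of the anti-Notch3 library, 550.1 against 135 in the isotype, 1045 against 107 in the arthritic knockout, 467 against 38.2 in the arthritic wild-type, 867 against 194 in the healthy knockout and 199.6 against 94.8 in the healthy wild-type library. Its level in members was highest in the knockout libraries and lowest in the healthy wild-type library, and Postn was low in all of these. In cells led by Ptn, Sfrp2 stood at 1148 CPM in the healthy knockout and 890 in the healthy wild-type library. In cells led by Mfap2 it stood at 136 and 162 CPM. Matrix genes among the higher ones were Col14a1, a collagen on the surface of fibrils (log2 ratios 0.69 to 1.52), Col3a1 (0.39 to 1.13), the basement-membrane and elastic-fibre protein Fbln2 (0.34 to 1.32) and Mgp, an inhibitor of calcification (0.60 to 1.89). The growth factor Igf1 (0.38 to 1.97) and the growth hormone receptor Ghr (0.49 to 0.82), through which Igf1 is induced in many tissues, were both higher. The rest of the higher genes were Itm2a, Olfml2b, Bicc1, C1qtnf2, Gpm6b, Gpnmb and Angptl4.

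Prg4, the lubricin of the joint surface, led the genes that were lower. It stood at 1496 CPM in members against 31753 in other cells of the anti-Notch3 library, 4556 against 18421.5 in the isotype, 3131 against 11273 in the arthritic knockout, 4356 against 14956 in the arthritic wild-type, 4548 against 23825 in the healthy knockout and 559 against 11968 in the healthy wild-type library. The immune cells of those libraries, in the same order, had 224, 119, 67.0, 72.9, 355 and 20.3 CPM, below the members in each. Hbegf, an EGF-family ligand of lining cells (log2 ratios -3.13 to -1.67), and Htra4, a secreted serine protease (-5.34 to -1.54), were lower with it, as were Clu, Ctgf, Rgcc, Errfi1, Procr, Sparcl1 and Cpe. Of 12 measured lining genes, 5 were at least 2-fold lower in all 6 libraries and 0 higher, with a median log2 ratio of -2.10. Summed lining genes came to 2499.7 CPM in anti-Notch3 members against 35492 in the other cells, and to 985 against 13942.5 in the healthy wild-type library.

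**Figure D4:**
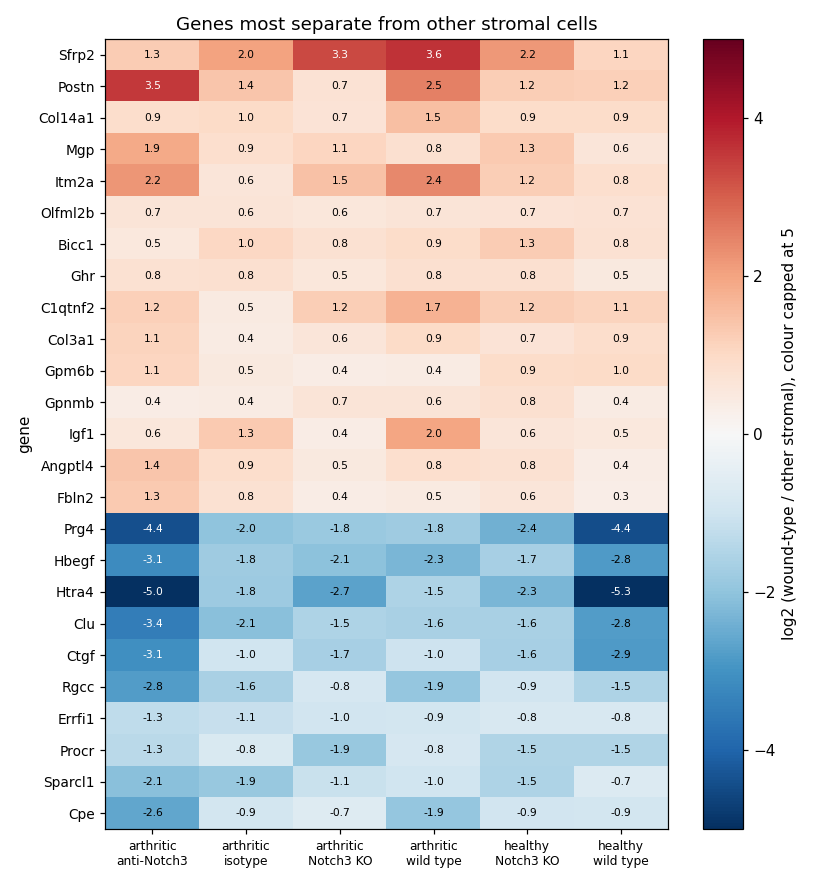
Log2 ratio of summed levels, wound-type over other stromal-gate cells, for the 25 genes most separate in all 6 libraries (rows) by library (columns); red is higher in wound-type cells, and no interval is drawn. Sfrp2 and Postn are higher and Prg4, Hbegf and Htra4 lower in every library.

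Other groups were less marked. Of 18 elastic and microfibril genes measured in all libraries, 1 (Mfap4) was at least 2-fold higher in 6 of 6 and 0 lower. Elastin (Eln) stood at 335 CPM in the anti-Notch3 library, 147 in the isotype, 155 in the arthritic knockout, 125 in the arthritic wild-type, 18.6 in the healthy knockout and 29.9 in the healthy wild-type library, and its log2 ratio to the other stromal cells was 2.82, 1.40, 1.04, 0.62, -1.11 and -0.17 in that order. Elastin was thus higher in the members of the 4 arthritic libraries and not of the healthy ones. Of 19 measured fibrillar matrix genes, 0 passed 2-fold in 6 of 6 libraries, with a median log2 ratio of 0.54. The libraries differed: in the anti-Notch3 library 9 of 20 were higher and 1 lower, and in the isotype library 0 of 21 were higher and 4 lower, with a median of -0.32. Their reference cells were unlike. Of the 1259 other stromal cells of the isotype library, 450 passed the marker sum and were kept out by the limit on Fmod and Tnn. In the anti-Notch3 library these were 6 of 793. The part of this in the contrast was not tested.

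Imprinted growth genes other than H19 were read as a list, of which 9 were measured in all libraries and 1 was at least 2-fold higher in 6 of 6. That gene was Cdkn1c, an inhibitor of the cell cycle, with log2 ratios to the other stromal cells of 2.60, 1.31, 1.62, 1.77, 1.10 and 1.06 in the anti-Notch3, isotype, arthritic knockout, arthritic wild-type, healthy knockout and healthy wild-type libraries. Mest, a paternally expressed gene of mesenchyme, stood at 128.5 CPM in the anti-Notch3 library, 55.1 in the isotype, 18.9 in the arthritic knockout, 52.4 in the arthritic wild-type, 4.65 in the healthy knockout and 11.2 in the healthy wild-type library. It too was highest in the libraries with most H19. Igf2, the growth factor gene that shares an imprinted cluster with H19, held 0 UMIs in the members of 5 libraries and 0.634 CPM in the isotype library. In the anti-Notch3 members, 0 of 2062254 UMIs allow up to 1.45 CPM (3 counts), beside 675 CPM of H19. Acta2 (smooth-muscle actin), which marks myofibroblasts, stood at 19.4 CPM in the anti-Notch3 library, 11.9 in the isotype, 8.38 in the arthritic knockout, 5.07 in the arthritic wild-type, 22.3 in the healthy knockout and 6.403 in the healthy wild-type library. The contractile list as a whole summed to 819 CPM in members against 441 in other stromal cells of the anti-Notch3 library, 664 against 825 in the isotype and 514 against 698 in the arthritic wild-type library, so it had no common direction.

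Some stromal cells that passed the marker sum were kept out by the limit on Fmod and Tnn, genes of tendon and fibrous matrix. Over all libraries 513 stromal cells passed the marker sum and held more than 2 UMIs of Fmod and Tnn, and 450 of these were in the isotype library. They made up 2.30% of the cells past the marker sum in the anti-Notch3 library, 36.3% in the isotype, 2.04% in the arthritic knockout, 9.27% in the arthritic wild-type, 9.95% in the healthy knockout and 2.86% in the healthy wild-type library. The isotype library stood apart. Within it, wound-type cells had 319.7 CPM of Pi16, a marker of adventitial fibroblasts, against 15.2 CPM in the Fmod and Tnn cells, and 1886 against 353 CPM of the chemokine Cxcl12. They had 185 against 39.6 CPM of Cd248, a surface protein of perivascular fibroblasts. In the other direction, they had 25.3 against 246 CPM of the cartilage proteoglycan Acan, 18.7 against 118 CPM of the tendon transcription factor Scx, and 121 against 513 CPM of tenascin C. These genes were among the 10 highest and 10 lowest in that contrast, which the gate made.

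Some wound-type cells also carried the inflammatory genes Saa3 (a serum amyloid protein) and Cxcl5 (a chemokine for neutrophils) at 6 or more UMIs together. There were 2 such members in the anti-Notch3 library (0.784%) and 63 in the isotype library (7.98%). There were 0 of 96 in the arthritic knockout library, which allows up to 3.77% (exact interval), and 36 in the arthritic wild-type library (12.7%). The healthy libraries had 0 in the knockout and 1 in the wild type. All wound-type cells of a library together, set against its other stromal cells that held at least 6 Saa3 and Cxcl5 UMIs, had 550.1 against 3.73 CPM of Sfrp2 in the isotype library and 467 against 7.09 in the arthritic wild-type library. They had less of the collagenase Mmp13, at 325 against 1119 CPM and 198 against 664 CPM in the same libraries.

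Anti-Notch3 against isotype asks how wound-type cells of arthritic joints differed once Notch3 had been targeted by antibody. The acute-phase genes Saa3, Saa1 and Hp and the protease Mmp3 were lower in the anti-Notch3 members, and Fst and the protease Mmp11 were higher. Of 8805 genes with at least 50 UMIs in both libraries together, 193 were at least 2-fold higher (2.19%) and 381 at least 2-fold lower (4.33%). For scale, isotype against arthritic wild type, with no Notch3 targeting on either side, gave 223 higher (2.5%) and 220 lower (2.47%) of 8920, so a 2-fold difference between single libraries is common here. Anti-Notch3 against arthritic wild type gave 198 higher (2.89%) and 251 lower (3.67%) of 6841. Of the 8805 genes of the antibody comparison, 74 were higher and 228 lower by 2-fold against both the isotype and the arthritic wild-type library. Both comparisons share the anti-Notch3 cells. The minimum of 50 UMIs was asked of the anti-Notch3 and isotype pair only, so these genes are not a subset of the 198 and 251 above. The genes named next come from the 10 highest and 10 lowest of these.

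Saa3 stood at 4.85 CPM in anti-Notch3 members, 755 in isotype and 313 in arthritic wild-type members. Haptoglobin (Hp), another acute-phase protein, stood at 20.9, 988 and 688 CPM in those libraries, and Slpi, an inhibitor of leukocyte proteases, at 4.36, 107 and 291 CPM. All were low in the anti-Notch3 members and abundant in the other two. The other stromal cells of those libraries had 10.6, 575 and 2055 CPM of Saa3 and 57.4, 1170 and 1140 CPM of Hp. They had 142, 467 and 942 CPM of Slpi. The other stromal cells thus differed in the same direction, and these differences were not particular to wound-type cells. Saa1 held 0 UMIs in anti-Notch3 members against 27.1 CPM in isotype members, at least 18.6-fold lower (3 counts over the library), and the olfactory receptor gene Olfr810 0 against 13.0 CPM, at least 8.93-fold lower. Chil1, a chitinase-like protein, stood at 0.485 CPM in anti-Notch3, 16.8 in isotype and 113 in arthritic wild-type members. Chil1 thus also differed between the isotype and arthritic wild-type libraries. The potassium channel gene Kcnj15, the proteoglycan gene Acan and the retinoic acid-making enzyme Aldh1a2 were each below 1 CPM in anti-Notch3 members, against 25.2, 25.3 and 24.1 CPM in isotype members. Osteopontin (Spp1) stood at 50.9, 1127 and 1239 CPM in the 3 libraries, but the immune cells of those libraries had 325, 1319.9 and 1988 CPM, and the part of free RNA was not tested.

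Leaving out the members with at least 6 Saa3 and Cxcl5 UMIs, an alternative chosen after seeing the data, lowered these levels. Hp was then 21.1 CPM in anti-Notch3 and 458 in isotype members, and Slpi 3.92 and 77.0, so both stayed lower in anti-Notch3 members. Saa1 was 0 and 3.21 CPM, against 27.1 CPM in isotype members with these cells, so most of its counts there lay in them. Saa3 was 0 and 23.5 CPM, a value that the choice of cells itself sets. The stromelysin Mmp3, a protease that cuts many matrix proteins, was 70.5 CPM in anti-Notch3 and 764 in isotype members without these cells, against 69.8 and 1059.6 with them.

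Among the genes higher in anti-Notch3 members, Fst (follistatin, which binds activins) stood at 231 CPM against 44.99 in isotype and 98.0 in arthritic wild-type members. Mmp11, a stromelysin of remodelling stroma, stood at 177, 38.3 and 63.8 CPM in that order. The anti-Notch3 library was the highest of the 3 for each. The other stromal cells had 184, 45.9 and 63.1 CPM of Fst and 50.2, 19.6 and 36.1 CPM of Mmp11 in that order. For these genes they thus differed in the same direction as the members. For Tagln they did not, at 12.1, 18.2 and 27.7 CPM. Cxcl10, an interferon-induced chemokine, stood at 164, 44.0 and 30.4 CPM, and its log2 ratio against isotype of 1.90 was 0.75 among cells with a marker sum of at least 10. Lgals7, Tagln, Gm4951, Akap12, Id1 and Vit had 15.03 to 42.2 CPM in anti-Notch3 and 0.792 to 7.29 CPM in isotype members.

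**Figure D5:**
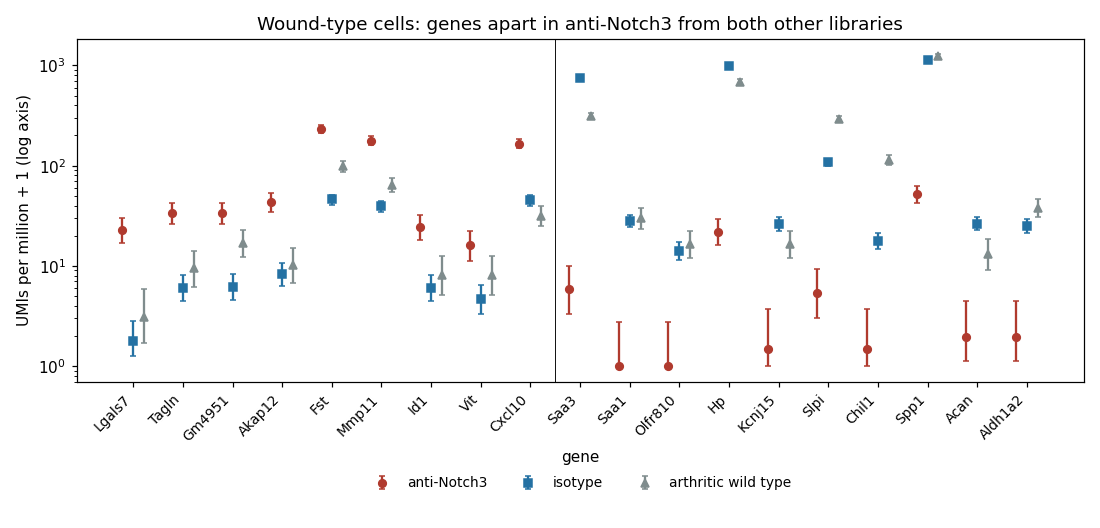
Summed level plus 1 (CPM, log axis) of genes from the 10 highest (left of the line) and 10 lowest of wound-type cells in the anti-Notch3 library, beside the isotype and arthritic wild-type libraries; bars are exact 95% Poisson intervals for counting error. Saa3 stands at 4.85 CPM in anti-Notch3 and 755 in isotype cells, and Fst at 231 and 44.99 CPM.

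By lists, anti-Notch3 against isotype gave 7 lower and 4 higher of 17 inflammatory genes, 4 lower and 0 higher of 22 fibrillar matrix genes, 4 lower and 0 higher of 6 tendon genes, and 3 lower and 3 higher of 19 proteases and inhibitors. The median log2 ratio was -0.18 for the inflammatory, -0.55 for the fibrillar matrix and -1.40 for the tendon list, beside -0.032 for all genes measured. No UMI of Fmod or Tnn was held by 239 of 255 anti-Notch3 members, but by only 578 of 789 isotype members. The part of this in the tendon and matrix lists was not tested. Among the inflammatory genes, Tnfsf11 (RANKL, which drives osteoclasts) stood at 1.45 CPM in anti-Notch3 and 33.7 in isotype members, and Cxcl5 at 6.30 and 106. Il6 went the other way, at 147 and 64.8 CPM, as did Csf1 at 78.6 and 36.3. Inflammatory genes thus differed in both directions. Of 16 TGF-beta response genes, 2 were lower (Ctgf at 21.8 and 95.7 CPM, and Inhba, the activin A subunit, at 38.3 and 88.7) and 0 higher. Of 20 elastic and microfibril genes, 2 were higher, Eln at 335 and 147 CPM and Efemp1 at 68.4 and 25.03, and 2 lower, Fbn2 and Ltbp3. Of 4 Notch-pathway genes measured, 0 passed 2-fold, with Hes1, a Notch target, at 104 and 113 CPM.

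The collagens differed in size and direction between anti-Notch3 and isotype members. Col1a1 stood at 5540.1 CPM in anti-Notch3, 9137 in isotype and 11327 in arthritic wild-type members, and Col3a1 at 11292.5, 16905 and 17683 CPM, both lower than in isotype members by less than 2-fold. Col11a1, a minor fibril-forming collagen, stood at 7.76 CPM in anti-Notch3 and 41.3 in isotype members, and Col5a3 at 233 and 209. Col12a1, a collagen of tendon and stressed matrix, stood at 77.6, 185 and 87.8 CPM, and tenascin C (Tnc) at 28.1, 121 and 152 CPM. For Tnc the anti-Notch3 library was below both others. Timp1, an inhibitor of matrix proteases, stood at 357, 862 and 1397 CPM.

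The isotype and arthritic wild-type libraries also differed from each other, among others in interferon-induced genes, of which 7 of 13 were at least 2-fold lower in isotype members and 0 higher. Bst2, an antiviral membrane protein, stood at 261 CPM in isotype and 636 in arthritic wild-type members, and in the immune cells of these libraries at 302 and 703 CPM. Isg15 stood at 85.1 and 271 CPM in members and at 113 and 458 CPM in immune cells. The immune cells thus differed in the same direction as the members. Centred on the median ratio of all genes, the ratios of isotype against arthritic wild type would be lower by 0.12 on the log2 scale, and those of arthritic knockout against arthritic wild type higher by 0.10.

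The comparisons of knockouts with wild type, and of arthritic with healthy wild type, were added after the data had been seen, and in the arthritic knockout library 96 cells stand behind each value. In members of the arthritic knockout library, more inflammatory, protease and interferon-induced genes were lower than higher against the arthritic wild-type library. Of 5362 genes, 236 were at least 2-fold higher (4.4%) and 468 at least 2-fold lower (8.73%). Among the lists, 9 of 17 inflammatory genes were lower and 2 higher, 8 of 16 proteases and inhibitors lower and 1 higher, 10 of 12 interferon-induced genes lower and 0 higher, and 8 of 19 elastic and microfibril genes lower and 1 higher. The medians of these lists were -1.71, -0.93, -2.18 and -0.74 on the log2 scale, beside -0.074 for all genes measured; with genes at 0 UMIs set at the floor of 3 counts that of the interferon list was -2.03. The summed inflammatory genes did not follow that count, at 4598 CPM in arthritic knockout and 4408 in arthritic wild-type members, where the chemokine Cxcl1 alone held 3598 and 1410.4 CPM. The immune cells of these libraries had 13.5 and 458 CPM of the interferon-induced gene Isg15 and 126 and 703 CPM of Bst2, beside 29.3 and 271 CPM and 75.4 and 636 CPM in members, so both kinds of cell differed in the same direction, and the part of this in the members' values was not tested. Mmp3 stood at 71.2 CPM in the arthritic knockout and 1009 in the arthritic wild-type members, where the antibody pair had 69.8 in anti-Notch3 and 1059.6 in isotype members. Mmp13 held 0 UMIs against 198 CPM, at least 31.4-fold lower, whereas anti-Notch3 and isotype members had 184 and 325 CPM. Saa3 held 0 UMIs against 313 CPM, at least 49.9-fold lower, and Lox, which cross-links collagen and elastin, stood at 46.1 against 632 CPM. The arthritic knockout members were thus low in Saa3 and Mmp3, as the anti-Notch3 members were, and also in Postn, Mfap4, Lox and Mmp13. Other stromal cells of the arthritic knockout and arthritic wild-type libraries had 7.69 and 2055 CPM of Saa3. They had 143 and 226 CPM of Postn, 22.5 and 57.9 of Mfap4, and 3513 and 6668 of the summed proteases and inhibitors. In these they differed in the same direction, so the lower levels were not particular to wound-type cells.

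Higher in the arthritic knockout members were 7 of 16 dissociation-stress genes, 7 of 14 sublining genes and 4 of 9 small leucine-rich proteoglycans, with 0, 1 and 3 lower. Other stromal cells of the arthritic knockout and arthritic wild-type libraries had 40398 and 20943 CPM of summed dissociation-stress genes. They had 37557 and 14988.5 CPM of the sublining genes and 22293 and 17279 of the proteoglycans. These sums thus differed in the same direction outside the wound-type cells. Sfrp2 stood at 1045 CPM in the knockout against 467 in the wild type, Ogn (osteoglycin) at 1408 against 373, Comp, a cartilage and tendon matrix protein, at 2029.6 against 506, and Tnmd (tenomodulin) at 297 against 70.5. Among cells led by Mfap2, 20 in the knockout and 55 in the wild type, Sfrp2 turned round, at 18.2 against 552 CPM. Tnmd was alike there, at 63.7 against 61.0 CPM, and Comp kept its direction, at 1412 against 683 CPM. In healthy wild-type members Comp stood at 2771 CPM, so the arthritic wild-type members were the low ones for that gene. Summed dissociation-stress genes, a sign of how cells bore the preparation, came to 43682 CPM in the arthritic knockout against 21756 in the arthritic wild-type members. Their part in the differences of this pair was not tested.

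Healthy knockout members had less Mmp3, at 109 CPM against 842 in healthy wild-type members, and, over all members together, more of the lining genes. Of 5501 genes, 175 were at least 2-fold higher (3.18%) and 255 at least 2-fold lower (4.64%). Lining genes were higher for 7 of 10 and lower for 0, with Prg4 at 4548 against 559 CPM. Of the Prg4 UMIs of healthy knockout members, 3524 lay in 22 cells led by Cthrc1, at 18364.5 CPM against 898 CPM in such healthy wild-type cells. Cells led by Ptn had 689 against 66.9 CPM of it, and at a marker sum of at least 15 the direction turned, with 315 against 732 CPM. Proteases and inhibitors were lower for 6 of 15 and higher for 0. The median log2 ratio was 3.14 for the lining and -0.56 for the protease list, beside -0.065 for all genes measured. For Mmp3, cells led by Cthrc1 had 41.7 against 1236 CPM and cells led by Ptn 157 against 299 CPM, a smaller difference within the class that makes up most of the knockout members. Mmp14, a membrane-bound collagenase, stood at 69.7 against 225 CPM, and Tnfsf11 at 0 against 21.3 CPM, at least 7.65-fold lower. Mmp3 and Tnfsf11 were lower in the anti-Notch3, arthritic knockout and healthy knockout members, each against its own wild-type or isotype library. For Mmp3 in the healthy pair, the size depended on the class of cells. Tnfsf11 rested on few UMIs on each lower side. Without the members with at least 6 Saa3 and Cxcl5 UMIs, Tnfsf11 stood at 4.19 CPM in arthritic knockout and 23.2 in arthritic wild-type members. Bglap2, a bone matrix gene, held 154 CPM in the healthy knockout and 0 UMIs in the healthy wild-type members, and the immune cells of the healthy knockout library had 0.717 CPM. Proliferation genes summed to 290 against 46.4 CPM and dissociation-stress genes to 36469.8 against 21909 CPM. The part of these in the differences was not tested.

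Arthritic against healthy wild-type members differed widely, with 380 of 6794 genes at least 2-fold higher (5.59%) and 403 at least 2-fold lower (5.93%). Interferon-induced genes were higher for 9 of 12 and lower for 0, inflammatory genes higher for 8 of 17 and lower for 2, and lining genes higher for 7 of 8 and lower for 1. The medians of these lists were 3.22, 0.96 and 1.54 on the log2 scale, beside -0.018 for all genes measured. The interferon-induced genes were higher in the immune cells too, with Isg15 at 458 CPM in arthritic and 13.2 in healthy wild-type immune cells and Bst2 at 703 and 92.6, and the part of this in the members' values was not tested. Postn stood at 1298 CPM in arthritic and 231 in healthy wild-type members, Mfap4 at 365 and 26.7, and Mdk (midkine, the growth factor related to pleiotrophin) at 154 and 11.7. Timp1 stood at 1397 and 321 CPM, and Lox at 632 and 195. These matrix and growth-factor genes were all higher in the arthritic than in the healthy wild-type members. Sublining genes were lower for 8 of 14 and higher for 1, and small leucine-rich proteoglycans lower for 5 of 10 and higher for 0, with Dcn (decorin, itself in the stromal gate) at 9613 and 24545 CPM and Ecm2 at 58.3 and 376. Dlk1, an imprinted gene of progenitor cells, stood at 2.96 CPM in arthritic and 43.2 in healthy wild-type members, opposite in direction to H19.

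Within the anti-Notch3, isotype and arthritic wild-type members, the gate gene that led in a cell went with other genes, listed here after their values were seen. Cells led by Cthrc1 had 202 CPM of Pi16 against 90.4 in the rest of the members of the anti-Notch3 library, 429 against 202 in the isotype and 1593 against 209 in the arthritic wild-type library. Cells led by H19 had 437 against 159, 1166 against 609 and 4009.5 against 1405 CPM of the chemokine Cxcl14 in the same libraries. Cells led by Mfap2 had 2696 against 1126, 3985 against 1485 and 4989.8 against 2821 CPM of Cxcl12. Cells led by Ptn had 600 against 188, 1472 against 319 and 655 against 380.5 CPM of Sfrp2. The set is therefore a mixture, and its make-up moves with the library in every comparison above. The part of that in the levels compared was not tested.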

How the data were processed

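Each of the 6 matrices holds counts of UMIs per gene and cell barcode, deposited by the authors as whole numbers without normalization; per the submitters' processing notes, Cell Ranger 3.0.2 and the mm10 mouse build were used. The wound-type cells, the gene lists and the comparisons were chosen with earlier results of these data known. Cells were gated on raw UMIs, so the gate is easier to pass in deep cells. Doublets called by Scrublet (scanpy 1.11.5, expected rate 0.03) were kept, and left out as an alternative. UMIs were summed over the members of a library and divided by their total (CPM). Log2 ratios used 0.5 UMIs as pseudocount, genes with at least 50 UMIs in the pair, and 2-fold as the limit for a call. For genes apart from both the isotype and the arthritic wild-type library, that minimum was asked of the anti-Notch3 and isotype pair only. With 1 library a group, no p-value was computed. Intervals are exact Poisson for levels, exact Clopper-Pearson for shares and log-scale for ratios of shares (scipy 1.17.1, numpy 2.4.6, pandas 2.3.3). UMIs count molecules, and intervals cover counting error only. A gene at 0 UMIs was given a floor of 3 counts.

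Genes named are the 6 markers, the gate genes, members of the lists, and 2 ranked sets: against other stromal cells, the 15 highest and 10 lowest by the smallest size of log2 ratio over the 6 libraries, with at least 100 CPM on one side in each; for anti-Notch3 against isotype, the 10 highest and 10 lowest that were also 2-fold in the same direction against arthritic wild type, of which 1 gene is not reported here. Genes of the cells outside the Fmod and Tnn limit, of the Saa3 and Cxcl5 cells and of cells led by one gate gene were picked after their values were seen. The comparisons of knockout with wild-type and of arthritic with healthy wild-type members, and the alternative without Saa3 and Cxcl5 members, were added after the data were seen. Alternatives changed the marker sum, the mitochondrial limit, the limit on Fmod and Tnn, depth, pseudocount, minimum UMIs, fold and scaling. Gene positions come from GENCODE M21 and promoter and microRNA sequences from RefSeq. The ratio code was checked on simulated data.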

Additional observations from a re-analysis of the deposited data

How the results depend on the processing

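No paired analysis was possible because each group is 1 library with no replicate, so no library could be left out within a group either. The log2 ratio of shares with a marker sum of at least 4 was 0.29 for isotype against arthritic wild type, -1.63 for arthritic knockout against arthritic wild type and 1.13 for arthritic wild type against healthy wild type. The log2 ratio of shares with a marker sum of at least 10 was -0.86 for anti-Notch3 against isotype, 0.65 for isotype against arthritic wild type, -3.31 for arthritic knockout against arthritic wild type and 2.26 for arthritic wild type against healthy wild type. The log2 ratio of shares with no limit on Fmod and Tnn was -1.28 for anti-Notch3 against isotype, 0.99 for isotype against arthritic wild type and -0.028 for arthritic knockout against healthy knockout. The log2 ratio of shares with cells thinned to 3000 UMIs before the gate was -0.99 for anti-Notch3 against isotype, 1.01 for isotype against arthritic wild type, -2.62 for arthritic knockout against arthritic wild type, 0.60 for healthy knockout against healthy wild type and 3.27 for arthritic wild type against healthy wild type. The log2 ratio of shares as a share of all cells was -1.07 for anti-Notch3 against isotype, 1.13 for isotype against arthritic wild type, -1.71 for arthritic knockout against arthritic wild type, 1.02 for arthritic wild type against healthy wild type and -0.072 for arthritic knockout against healthy knockout. Directions turned for healthy knockout against healthy wild type after thinning, and for arthritic knockout against healthy knockout, whose ratio lay near 0, with no limit on Fmod and Tnn and as a share of all cells; the cause was not tested. The other share ratios kept their direction under each of these settings, and with at most 5% mitochondrial UMIs or without Scrublet doublets. The counts of genes past 2-fold that moved by more than 1.5 times are given next. A pseudocount of 5 UMIs gave 205 lower for anti-Notch3 against isotype, 93 higher for isotype against arthritic wild type, 168 lower for arthritic knockout against arthritic wild type, 150 lower for healthy knockout against healthy wild type and 14 lower for members against other stromal cells in 6 of 6 libraries. A minimum of 20 UMIs gave 394 higher and 652 lower for anti-Notch3 against isotype, 424 higher and 369 lower for isotype against arthritic wild type, 398 higher and 492 lower for anti-Notch3 against arthritic wild type, 568 higher and 886 lower for arthritic knockout against arthritic wild type, 370 higher and 594 lower for healthy knockout against healthy wild type and 678 higher and 712 lower for arthritic wild type against healthy wild type. No minimum gave 1682 higher and 1508 lower for anti-Notch3 against isotype, 1175 higher and 1908 lower for isotype against arthritic wild type, 1844 higher and 2381 lower for anti-Notch3 against arthritic wild type, 2119 higher and 1615 lower for arthritic knockout against arthritic wild type, 1946 higher and 1646 lower for healthy knockout against healthy wild type, 2747 higher and 2196 lower for arthritic wild type against healthy wild type and 15 higher and 45 lower for members against other stromal cells in 6 of 6 libraries. A limit of 1.5-fold gave 678 higher and 1066 lower for anti-Notch3 against isotype, 875 higher and 596 lower for isotype against arthritic wild type, 799 higher and 675 lower for anti-Notch3 against arthritic wild type, 702 higher and 1074 lower for arthritic knockout against arthritic wild type, 495 higher and 824 lower for healthy knockout against healthy wild type, 949 higher and 1117 lower for arthritic wild type against healthy wild type and 11 higher and 55 lower for members against other stromal cells in 6 of 6 libraries. Members thinned to 3000 UMIs gave 124 higher and 230 lower for anti-Notch3 against isotype, 129 lower for isotype against arthritic wild type, 122 higher and 120 lower for anti-Notch3 against arthritic wild type, 125 higher and 188 lower for arthritic knockout against arthritic wild type, 85 higher and 107 lower for healthy knockout against healthy wild type, 176 higher and 186 lower for arthritic wild type against healthy wild type and 0 higher and 14 lower for members against other stromal cells in 6 of 6 libraries. Members without any Fmod or Tnn gave 1 higher for members against other stromal cells in 6 of 6 libraries. A marker sum of at least 10 gave 115 higher for healthy knockout against healthy wild type. Leaving out the members with at least 6 Saa3 and Cxcl5 UMIs, leaving out doublets and scaling by median-of-ratios moved no count of genes by more than 1.5 times. Among single genes, the smallest log2 ratio of members to other stromal cells over the 6 libraries became -0.069 for Postn, -0.029 for Col3a1 and 0.32 for Cpe with a marker sum of at least 10, so these kept no common direction there. Depth limits the gate: its threshold is a number of raw UMIs and knockout members were the shallowest, and the 96 arthritic knockout members hold 477428 UMIs, so genes at a few CPM rest on few molecules there.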
